A study of Mus musculus with 6 samples.

Results

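The NRF2 and glutathione synthesis genes are 8 genes taken by name from the deposited expression table: the transcription factor gene Nfe2l2, its inhibitor Keap1, and the antioxidant genes Nqo1, Srxn1, Gclc, Gclm, Gsr and Txn1. All 8 were among the 11789 genes listed, and all 8 were among the 10696 genes tested. RNA sequencing was done on alveolar macrophages, which patrol the air spaces of the lung, of C57BL/6 mice after exposure to BLM, an abbreviation the labels leave unexplained. The libraries A20-1, A20-3 and A20-4 came from mice labelled A20 conditional knockout, and BLM1, BLM2 and BLM3 were taken as those from wild-type mice, so both groups share the strain, the lung origin and the exposure. A20, the product of Tnfaip3, edits ubiquitin chains and restrains NF-kB. The labels give no Cre driver, deleted exons, dose, day, age or pooling of animals, so p-values cover the spread among these libraries, some of it possibly technical.

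NRF2, the product of Nfe2l2, is a transcription factor that switches on genes for detoxification and antioxidant defence. KEAP1 holds NRF2 in the cytoplasm and passes it to a CUL3 ubiquitin ligase for degradation, until oxidants or electrophiles modify cysteines of KEAP1 and NRF2 accumulates. Control is thus largely at the level of protein, which RNA does not measure. NRF2 then binds antioxidant response elements together with a small MAF protein, and in macrophages this programme accompanies the handling of oxidants, heme and engulfed material.

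The promoters below were picked after the values were seen. The groups did not overlap for Srxn1 and Nqo1 and overlapped for Nfe2l2 and Gclm, though none of these genes passed the test given later. Any part of the promoters in this was not tested. Each line gives the 250 bases before the start of the gene in RefSeq (GRCm38.p6), 5′ to 3′ on the strand of the gene. They lie at chr2:152105274-152105523 on the plus strand for Srxn1, chr8:107403206-107403455 on the minus strand for Nqo1, chr2:75704664-75704913 on the minus strand for Nfe2l2, and chr3:122245307-122245556 on the plus strand for Gclm. Capitals mark matches to TGACNNNGC, the core of the antioxidant response element, or to TGANTCAGC, the form it shares with AP-1 and MAF sites.
Srxn1: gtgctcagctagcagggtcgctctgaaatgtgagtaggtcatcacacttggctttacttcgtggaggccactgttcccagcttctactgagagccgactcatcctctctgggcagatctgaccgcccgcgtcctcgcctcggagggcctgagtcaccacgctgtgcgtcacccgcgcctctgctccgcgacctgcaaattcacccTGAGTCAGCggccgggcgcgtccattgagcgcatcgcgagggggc
Nqo1: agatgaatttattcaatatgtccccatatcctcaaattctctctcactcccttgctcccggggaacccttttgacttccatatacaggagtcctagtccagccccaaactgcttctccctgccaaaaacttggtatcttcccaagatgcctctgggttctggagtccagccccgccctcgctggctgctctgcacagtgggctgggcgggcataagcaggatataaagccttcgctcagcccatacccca
Nfe2l2: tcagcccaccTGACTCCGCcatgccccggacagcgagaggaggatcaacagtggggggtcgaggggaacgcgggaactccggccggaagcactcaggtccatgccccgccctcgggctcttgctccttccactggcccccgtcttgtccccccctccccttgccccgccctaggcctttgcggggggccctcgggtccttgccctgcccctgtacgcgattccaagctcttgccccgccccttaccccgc
Gclm: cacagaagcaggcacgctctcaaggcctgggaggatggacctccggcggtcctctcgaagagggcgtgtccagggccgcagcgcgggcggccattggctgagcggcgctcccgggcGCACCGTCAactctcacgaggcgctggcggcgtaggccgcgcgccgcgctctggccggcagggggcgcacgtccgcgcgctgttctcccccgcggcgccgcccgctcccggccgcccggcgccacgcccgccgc

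Both motifs were searched on both strands of the 300 bases from 250 before to 50 after the RefSeq start. A site that fits both would count for both. Distances count from that start, which for Srxn1, Nqo1, Nfe2l2 and Keap1 differs by some bases from the deposited gene coordinates. Promoter windows were at hand for 6 of the 8 genes, without Gclc and Gsr. TGACNNNGC was found in 3 of the 6, in 12.4% of all 32851 windows and in 14.7% of the 10715 windows of symbols tested. Nfe2l2 held it 240 bases upstream as TGACTCCGC, and Gclm 134 bases upstream on the opposite strand as TGACGGTGC. Srxn1 held it only after its start, as TGACCTAGC on the opposite strand. TGANTCAGC was searched after the windows had been read, and Srxn1 held it 45 bases upstream as TGAGTCAGC, as did 1.19% of all windows at any position. These letters were not found in the windows of Nqo1, Keap1 and Txn1, and a match describes the sequence only. Sites outside the 300 bases were not searched.

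Levels are given in FPKM, fragments scaled by transcript length and library size, so they can be compared between genes. Txn1 was the most abundant of the 8 in all 6 libraries, at 299 to 401 FPKM, followed by Gsr at 81.6 to 103 FPKM and Nfe2l2 at 55.8 to 73.4 FPKM. Srxn1 and Gclc came next and overlapped within each group. Keap1 at 9.24 to 12.8 FPKM, Gclm at 5.0 to 7.98 FPKM and Nqo1 at 1.56 to 4.78 FPKM did not overlap each other.

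Of the 8 genes, none passed the test in either direction (limma on log2(FPKM + 1), Benjamini-Hochberg adjusted p under 0.05; 3 of the 8 had an unadjusted p under 0.05, as did 20.3% of all genes tested). Among all 10696 genes tested 1.1% passed, as 0.252% rose and 0.851% fell in the libraries labelled knockout. The 3 genes with the smallest p, Srxn1, Nqo1 and Gclc, had values in the knockout libraries that all lay below those of wild type, as did 13.1% of all genes tested. The median difference of the 8 genes was -0.16 on the log2(FPKM + 1) scale, knockout minus wild type, against 0.02 over all genes tested. After rescaling to TPM it was -0.08, against 0.10 over all genes, and it was -0.10 with quantile normalization and -0.10 with array weights. For a gene at low FPKM, a difference on that scale is smaller than its fold change.

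**Figure D1:**
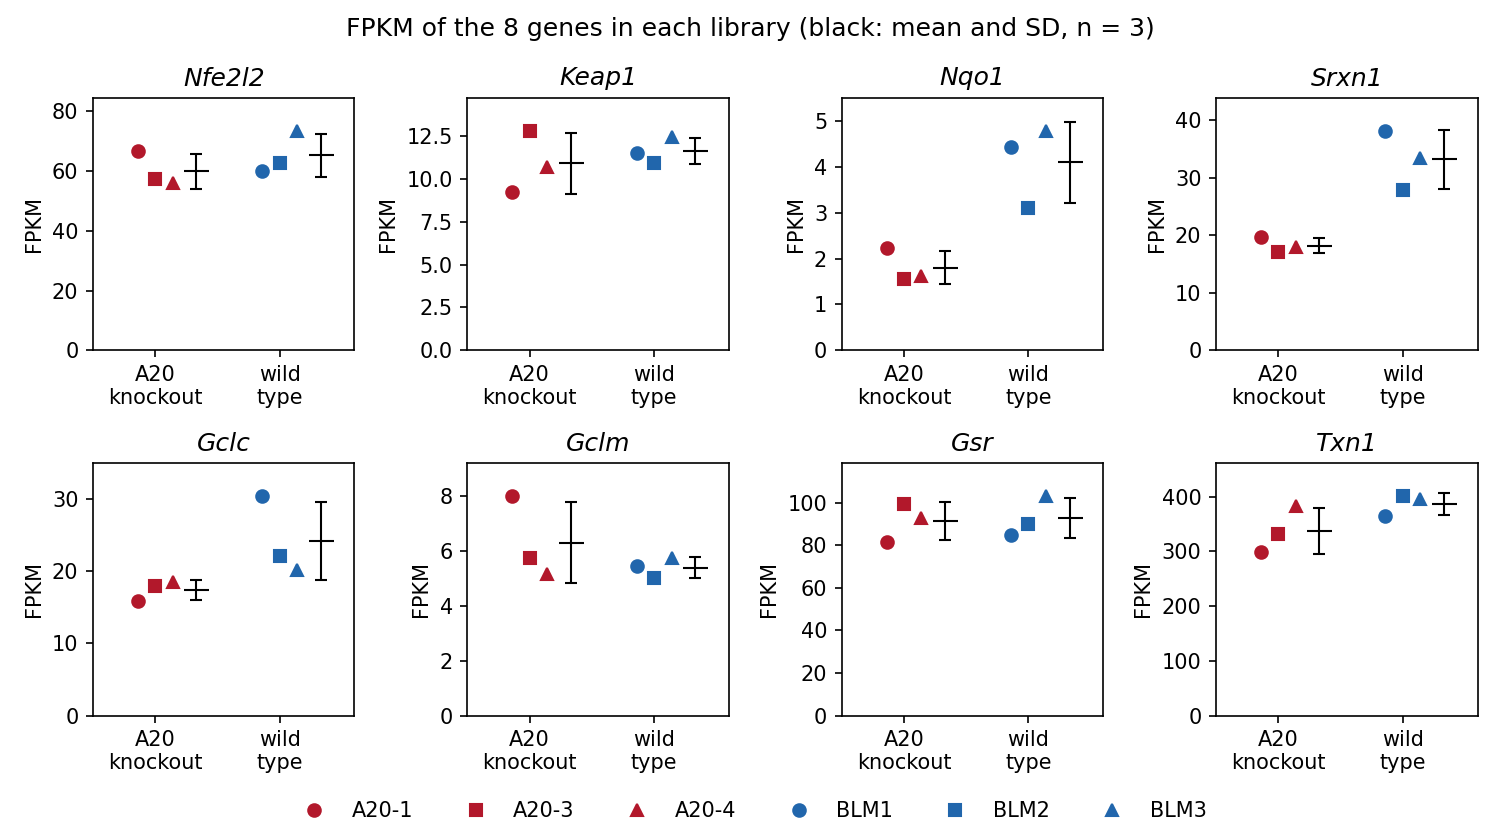
FPKM of the 8 genes (vertical axis, from 0, a separate scale for each gene) in the 3 knockout libraries and the 3 wild-type libraries; coloured symbols are libraries and the black bar is the mean with its SD (n = 3). The knockout values of Nqo1, Srxn1 and Gclc all lie below the wild-type values, and the groups overlap for the other 5 genes.

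Nfe2l2 (ENSMUSG00000015839.6, GRCm38 chromosome 2, 75675513 to 75704641, minus strand, protein coding), the transcription factor gene itself, had 66.5, 57.2 and 55.8 FPKM in A20-1, A20-3 and A20-4, against 59.9, 62.6 and 73.4 FPKM in BLM1, BLM2 and BLM3. The groups overlapped, with A20-1 above BLM1 and BLM2, and BLM3 highest. The log2 difference was -0.12 ± 0.13 (SE), with a 95% interval of -0.42 to 0.18 (limma adjusted p = 0.611). Keap1 (ENSMUSG00000003308.15, chromosome 9, 21229730 to 21239361, minus strand), the adaptor that marks NRF2 for degradation, had 9.24, 12.8 and 10.7 FPKM in A20-1, A20-3 and A20-4, against 11.5, 10.9 and 12.5 FPKM in BLM1, BLM2 and BLM3. The knockout libraries held both the lowest and the highest value. The log2 difference was -0.09 ± 0.14 (SE, 95% interval -0.42 to 0.23, limma adjusted p = 0.725), and it was 0.01 without A20-1. An antisense gene overlaps Keap1 in GENCODE M21, and the use of strand in counting is not given. The level of Keap1 is thus uncertain where reads were shared.

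The ratio of Nfe2l2 to Keap1 FPKM set the activator against its inhibitor within each library. It was 7.20, 4.47 and 5.22 in A20-1, A20-3 and A20-4, against 5.21, 5.73 and 5.89 in BLM1, BLM2 and BLM3. The wild-type values lay inside the range of the knockout values, which A20-1 widened at the top. The means were 5.63 ± 1.41 in the knockout and 5.61 ± 0.357 in the wild-type libraries (SD, n = 3 each; exact two-sided permutation test of the log2 ratio, p = 1, in a design that cannot go below 0.1).

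Srxn1 (ENSMUSG00000032802.8, chromosome 2, 152105516 to 152111376, plus strand) encodes sulfiredoxin, which restores overoxidised peroxiredoxins. It had 19.6, 17.1 and 18.0 FPKM in A20-1, A20-3 and A20-4, against 38.2, 28.0 and 33.5 FPKM in BLM1, BLM2 and BLM3. All knockout values lay below all wild-type values, and BLM3 lay between BLM1 and BLM2. The means were 18.2 ± 1.30 FPKM in the knockout and 33.2 ± 5.11 FPKM in the wild-type libraries (SD, n = 3 each), or 54.9% of the wild-type level. The log2 difference was -0.82 ± 0.14 (SE, 95% interval -1.15 to -0.49), with a limma adjusted p of 0.0537, just outside the threshold. It passed without BLM3 (-0.81, adjusted p = 0.0435) and without BLM2 (-0.94, adjusted p = 0.0495), but not without any of the other 4 libraries (adjusted p 0.126 to 0.223). Over all genes tested, 2.5% fell without BLM3 and 0.711% without BLM2, against 0.851% with all 6 libraries. A difference this low or lower was seen in 4.11% of all genes tested.

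Nqo1 (ENSMUSG00000003849.8, chromosome 8, 107388225 to 107403206, minus strand) encodes a quinone reductase and is among the genes most often read as a marker of NRF2 activity. It was the least abundant of the 8, with 2.22, 1.56 and 1.62 FPKM in A20-1, A20-3 and A20-4, against 4.42, 3.10 and 4.78 FPKM in BLM1, BLM2 and BLM3. Again all knockout values lay below all wild-type values, and BLM2 was the wild-type library nearest to them. The means were 1.80 ± 0.367 FPKM in the knockout and 4.10 ± 0.885 FPKM in the wild-type libraries (SD, n = 3 each), or 44.0% of the wild-type level. The log2 difference of -0.86 ± 0.17 (SE, 95% interval -1.27 to -0.44) missed the threshold (limma adjusted p = 0.0785), and its adjusted p ran from 0.0591 to 0.274 when a library was left out. With 3 libraries against 3, the exact two-sided permutation test of FPKM gave 0.1 for Srxn1, Nqo1 and Gclc, the smallest value it allows.

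In bulk RNA, fewer cells of a type and less RNA per cell cannot be told apart. The summed FPKM of 12 of 13 recruited macrophage markers found in the table was 559 to 846 in the knockout libraries and 1503 to 1723 in wild type, and C1qa, C1qb and C1qc among them fell. That of 12 lung epithelial markers was 327 to 416 in the knockout libraries and 103 to 237 in wild type, with Scgb1a1 and Sftpc the most abundant on average over the 6 libraries. None of 11 tested epithelial markers passed (6 higher and 5 lower), and those with the smallest p, Krt18 and Krt8, had lower values in all knockout libraries, at 4.87 and 4.68 FPKM on average in the knockout and 15.9 and 11.4 FPKM in the wild-type libraries. For 9 of 12 neutrophil markers the sum was 115 to 158 in the knockout libraries and 149 to 162 in BLM1 and BLM2. It was 2826 in BLM3, most of it from S100a8 (861) and S100a9 (1535), and 0 of 8 tested passed. Ltf and Mmp8, at 28.9 and 32.2 FPKM in BLM3, lay within their knockout ranges, and each other marker of that list was highest in BLM3. B cell markers summed to 12.7 to 21.9 FPKM in the knockout libraries and 11.9 in BLM2, but 87.0 in BLM1 and 80.7 in BLM3. T and NK cell markers summed to 157 to 187 FPKM in the knockout libraries, against 161, 120 and 329 in BLM1, BLM2 and BLM3. Erythroid markers summed to 188, 3551 and 968 FPKM in A20-1, A20-3 and A20-4, against 835, 317 and 2484 in BLM1, BLM2 and BLM3. In none of these lists was a marker at 0 in all 6 libraries. The neutrophil genes Mpo, Elane and Camp were not among the genes listed. The part of these cell types in the differences of the 8 genes was not tested.

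Gclc (ENSMUSG00000032350.9, chromosome 9, 77754535 to 77794485, plus strand) encodes the catalytic subunit of glutamate-cysteine ligase, the rate-limiting enzyme of glutathione synthesis. It had 15.9, 17.9 and 18.4 FPKM in A20-1, A20-3 and A20-4, against 30.4, 22.0 and 20.2 FPKM in BLM1, BLM2 and BLM3. The groups did not overlap, but BLM3 lay close to A20-4, and BLM1 stood well above the rest. The log2 difference was -0.43 ± 0.17 (SE, 95% interval -0.83 to -0.04, limma adjusted p = 0.213), and without BLM1 it was -0.27 (adjusted p = 0.383).

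Gclm (ENSMUSG00000028124.15, chromosome 3, 122245557 to 122270732, plus strand) encodes the modifier subunit of the same ligase, which raises its efficiency. It had 7.98, 5.75 and 5.16 FPKM in A20-1, A20-3 and A20-4, against 5.44, 5.0 and 5.72 FPKM in BLM1, BLM2 and BLM3. A20-1 was highest, and the other knockout libraries lay within or next to the wild-type range. Gclm was the only gene of the 8 with a positive difference, 0.17 ± 0.16 (SE, 95% interval -0.21 to 0.56, limma adjusted p = 0.564), which was 0.01 without A20-1. A pseudogene on the same strand and a transcript on the opposite strand overlap Gclm in GENCODE M21, so its level is uncertain where reads were shared.

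The ratio of the catalytic to the modifier subunit was 1.99, 3.12 and 3.57 in A20-1, A20-3 and A20-4, against 5.58, 4.41 and 3.53 in BLM1, BLM2 and BLM3. A20-4 and BLM3 were nearly equal, so the groups overlapped. The means were 2.89 ± 0.814 in the knockout and 4.5 ± 1.03 in the wild-type libraries (SD, n = 3 each). The log2 ratio differed by -0.66 (exact two-sided permutation test, p = 0.2), which was not distinguishable from the spread between libraries.

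**Figure D2:**
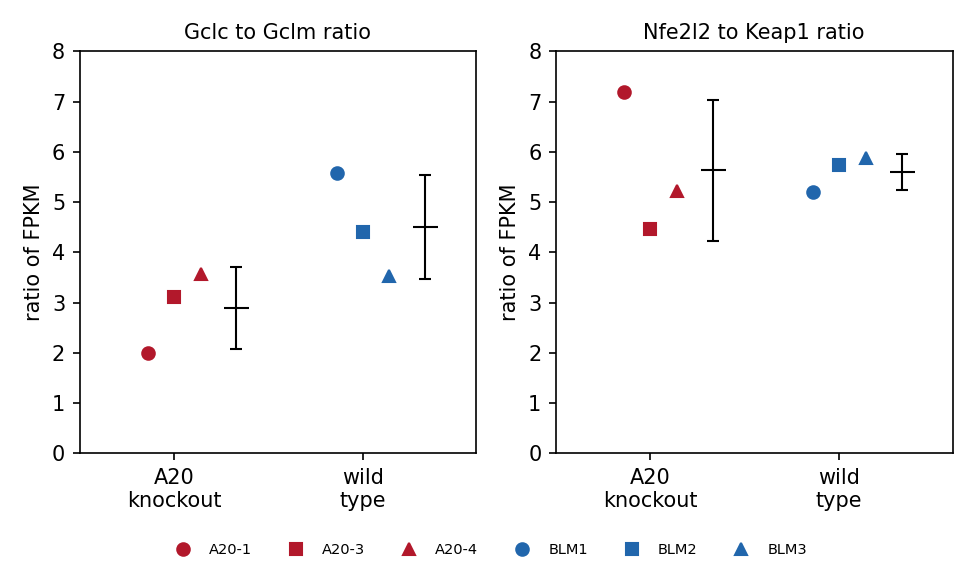
Ratio of Gclc to Gclm FPKM (left) and of Nfe2l2 to Keap1 FPKM (right), vertical axes from 0, in the 3 knockout and 3 wild-type libraries; coloured symbols are libraries and the black bar is the mean with its SD (n = 3). The Gclc to Gclm means are 2.89 in the knockout and 4.5 in the wild-type libraries with A20-4 and BLM3 nearly equal, and the Nfe2l2 to Keap1 means are 5.63 in the knockout and 5.61 in the wild-type libraries.

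The last 2 genes belong to the glutathione and thioredoxin systems. Gsr (ENSMUSG00000031584.16, chromosome 8, 33652523 to 33698163, plus strand), glutathione reductase, had 81.6, 99.4 and 92.9 FPKM in A20-1, A20-3 and A20-4, against 84.9, 89.8 and 103 FPKM in BLM1, BLM2 and BLM3. The groups interleaved, and the log2 difference was -0.02 ± 0.13 (SE, 95% interval -0.32 to 0.28, limma adjusted p = 0.942), with a sign that turned under 5 of 14 alternatives. Txn1 (ENSMUSG00000028367.5, chromosome 4, 57943373 to 57956411, minus strand), the cytosolic thioredoxin, had 299, 332 and 382 FPKM in A20-1, A20-3 and A20-4, against 364, 401 and 395 FPKM in BLM1, BLM2 and BLM3. A20-4 lay above BLM1, and the log2 difference was -0.20 ± 0.13 (SE, 95% interval -0.51 to 0.11, limma adjusted p = 0.417).

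**Figure D3:**
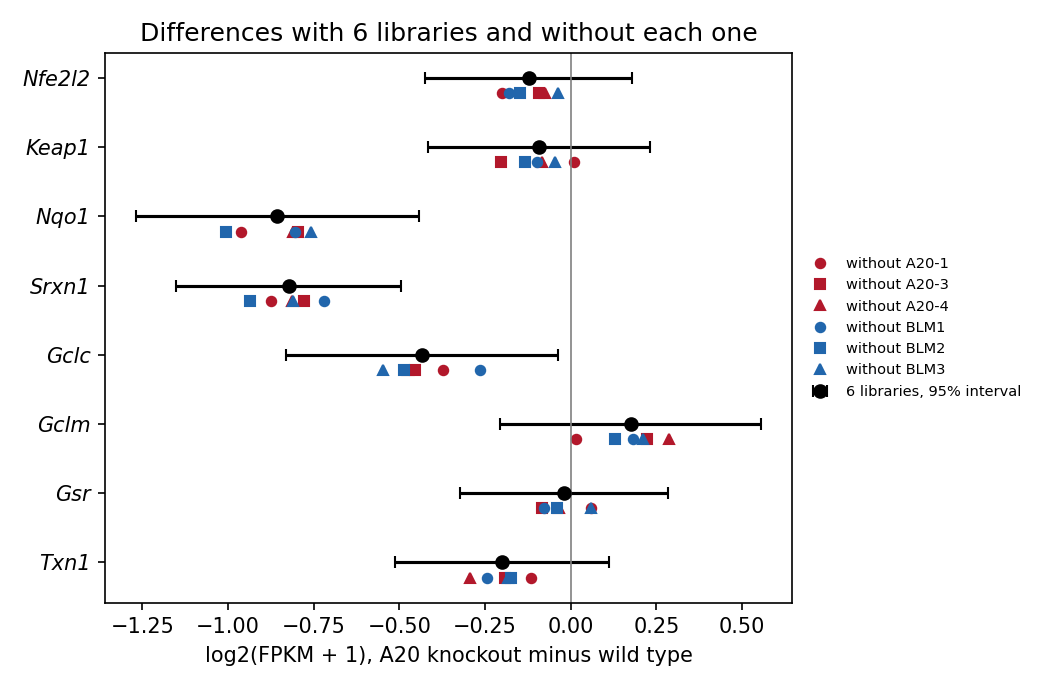
Difference of log2(FPKM + 1), knockout minus wild type (horizontal axis), for the 8 genes: black points and bars are the estimate and 95% interval with 6 libraries, and coloured symbols are the estimates without each library in turn. Nqo1 and Srxn1 stay between -1.01 and -0.72 whichever library is left out, and Gsr and Keap1 lie on both sides of 0.

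Other genes of the pathway were read from 5 lists holding 109 tested genes, some in more than 1 list. Only Akr1b8 and Gstm2 passed the test, each of which fell, while 0.851% of all genes tested fell and 0.252% rose. Among 27 other tested NRF2 targets, 1 fell and 0 rose, and the median log2 difference was -0.10, or -0.03 after rescaling to TPM. Akr1b8, an aldo-keto reductase, had 4.27, 5.19 and 8.24 FPKM in A20-1, A20-3 and A20-4, against 21.0, 16.8 and 19 FPKM in BLM1, BLM2 and BLM3. Its highest knockout value was thus far below its lowest wild-type value, and it fell by 1.57 ± 0.22 on the log2 scale (SE, limma adjusted p = 0.0344). It passed without BLM3 (adjusted p = 0.0302) and without A20-4, but not without A20-1 (adjusted p = 0.0903), A20-3 (0.155), BLM1 (0.132) or BLM2 (0.0615). The biliverdin reductase gene Blvrb had 18.5 ± 3.16 FPKM in the knockout and 25.9 ± 0.393 FPKM in the wild-type libraries, and the peroxiredoxin gene Prdx1 had 188 ± 33.8 FPKM in the knockout and 272 ± 11.7 FPKM in the wild-type libraries (SD, n = 3; adjusted p = 0.131 and 0.133). Without BLM3, where 2.5% of all genes tested fell, so did 4 of the 27, namely Akr1b8, the malic enzyme gene Me1 (adjusted p = 0.0498), the epoxide hydrolase gene Ephx1 (0.0394) and the heme transporter gene Slc48a1 (0.0453).

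Some stress-inducible targets, chosen after their values were seen, were far higher in BLM3 than in any other library. BLM3 was also highest in most neutrophil markers and in Ly6c2, Plac8 and Cd14 of the recruited macrophage list. The cystine importer gene Slc7a11, which feeds glutathione synthesis, had 3.30, 1.88 and 3.14 FPKM in A20-1, A20-3 and A20-4, against 3.8, 2.67 and 24.4 FPKM in BLM1, BLM2 and BLM3. Its knockout values overlapped those of BLM1 and BLM2, and only BLM3 stood apart (log2 difference -1.04, limma adjusted p = 0.433, or -0.18 without BLM3). Hmox1, heme oxygenase, had 109, 118 and 137 FPKM in A20-1, A20-3 and A20-4, against 163, 157 and 329 FPKM in BLM1, BLM2 and BLM3 (log2 difference -0.74, adjusted p = 0.226, or -0.40 without BLM3). The growth inhibitor gene Osgin1 had 1.44, 0.566 and 1.52 FPKM in A20-1, A20-3 and A20-4, against 3.39, 2.72 and 12.8 FPKM in BLM1, BLM2 and BLM3 (adjusted p = 0.175). For Hmox1 and Osgin1 the groups did not overlap even so, whereas Txnrd1, thioredoxin reductase, had 27.4 ± 3.16 FPKM in the knockout and 28.8 ± 3.55 FPKM in the wild-type libraries (SD, n = 3).

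Of 23 tested regulators of NRF2, 0 passed (7 had groups that did not overlap, against 29% of all genes tested). The smallest p belonged to Bach1, a repressor that competes for the same DNA elements, with 25.7 ± 3.20 FPKM in the knockout and 18.1 ± 1.34 FPKM in the wild-type libraries (SD, n = 3; log2 difference 0.48 ± 0.13, SE, limma adjusted p = 0.118). The coactivator gene Ep300 had 13.8 ± 1.62 FPKM in the knockout and 9.91 ± 0.685 FPKM in the wild-type libraries (adjusted p = 0.123), and Rbx1, the RING subunit of the KEAP1 ligase, had 32.8 ± 3.26 FPKM in the knockout and 42.4 ± 2.17 FPKM in the wild-type libraries (adjusted p = 0.154). Cul3, the scaffold of that ligase, had 18.3 FPKM in the knockout and 19.1 FPKM in the wild-type libraries. The genes whose centred values over the 6 libraries lay closest to Nfe2l2 were Pigx, Coq4 and Rfc5, with root mean square differences of 0.03, 0.04 and 0.04 log2 units.

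Among 26 tested genes of glutathione supply, use and turnover, 1 fell and 0 rose, against 0.851% and 0.252% of all genes tested. Their median log2 difference was -0.01, and it was positive after rescaling to TPM (0.06), with quantile normalization (0.03), at a minimum mean FPKM of 5 (0.05) and without BLM1 (0.00193). Gstm2, a glutathione S-transferase of the mu class, had 1.66, 1.90 and 1.76 FPKM in A20-1, A20-3 and A20-4, against 3.55, 4.81 and 5.13 FPKM in BLM1, BLM2 and BLM3. Its log2 difference was -0.97 ± 0.14 (SE, limma adjusted p = 0.0390). It passed without BLM3 (adjusted p = 0.0318), where 2.5% of all genes tested fell, and was lost without any other library (0.0753 to 0.172). The mu class genes are close paralogs, so its level is uncertain where reads were split. Esd, S-formylglutathione hydrolase, had 29.4 ± 1.25 FPKM in the knockout and 54.8 ± 11.5 FPKM in the wild-type libraries (adjusted p = 0.0632, or 0.0221 without BLM3), and the microsomal transferase gene Mgst2 had 3.08 ± 0.228 FPKM in the knockout and 6.27 ± 1.70 FPKM in the wild-type libraries (SD, n = 3; adjusted p = 0.0889). Gss, which completes glutathione synthesis, had 2.03 FPKM in the knockout and 2.55 FPKM in the wild-type libraries (adjusted p = 0.327).

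In the thioredoxin system 0 of 27 tested genes passed, and 24 of 27 had a negative difference, as did 47.1% of all genes tested. The median was -0.13 on the log2 scale and -0.05 after rescaling to TPM. The exception in size was Txnip, whose product binds and inhibits thioredoxin, with 174, 225 and 238 FPKM in A20-1, A20-3 and A20-4, against 117, 116 and 85.4 FPKM in BLM1, BLM2 and BLM3. All knockout values exceeded all wild-type values, and the log2 difference was 1.00 ± 0.18 (SE, limma adjusted p = 0.0632). Txnip passed without BLM3 (0.85, limma adjusted p = 0.0394), where 1.35% of all genes tested rose, against 0.252% with all 6 libraries. The sestrin gene Sesn1 had 6.07 ± 0.367 FPKM in the knockout and 9.59 ± 1.83 FPKM in the wild-type libraries (SD, n = 3; adjusted p = 0.111). Among 18 genes of NADPH supply, the reducing power for Gsr and Nqo1, 0 passed and the median was 0.10, or 0.19 after rescaling to TPM, 0.01 with array weights and -0.06 without BLM3. The smallest p belonged to the pentose phosphate gene Rpia, with 9.74 ± 2.01 FPKM in the knockout and 6.35 ± 1.04 FPKM in wild type (adjusted p = 0.167). Me1 followed with 1.05 ± 0.0824 FPKM in the knockout and 1.92 ± 0.614 FPKM in the wild-type libraries (adjusted p = 0.190), and the hexose phosphate dehydrogenase gene H6pd with 11.1 ± 1.56 FPKM in the knockout and 14.9 ± 1.99 FPKM in the wild-type libraries (SD, n = 3; adjusted p = 0.196).

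**Figure D4:**
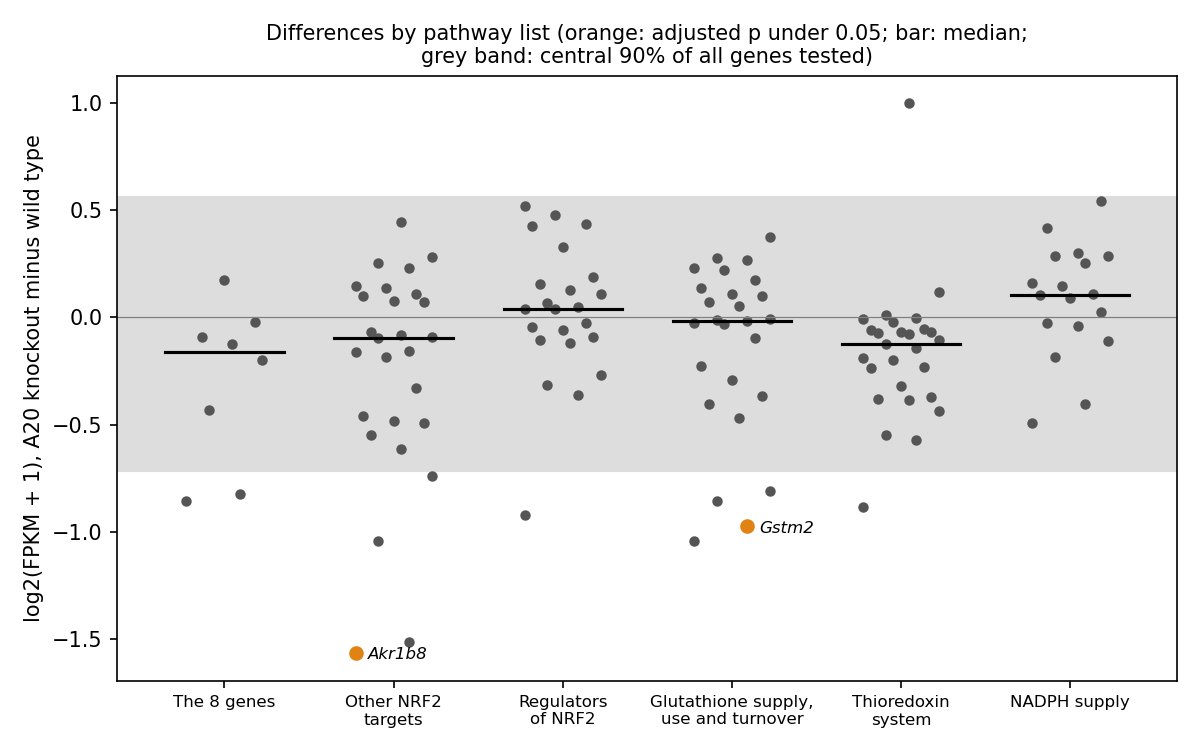
Difference of log2(FPKM + 1), knockout minus wild type (vertical axis), of each tested gene in the 8 genes and the 5 pathway lists; black bars are medians, orange points have an adjusted p under 0.05, and the grey band holds the central 90% of all genes tested, from -0.72 to 0.56. Akr1b8 and Gstm2 are the only orange points, and Nqo1 and Srxn1 lie just below the band.

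Across the series, 27 genes rose and 91 fell, and the split was 41 and 64 after rescaling to TPM. Tnfaip3, the targeted gene, had 8.44, 12.9 and 6.80 FPKM in A20-1, A20-3 and A20-4, against 4.47, 2.18 and 21.6 FPKM in BLM1, BLM2 and BLM3, so its level did not check the knockout label, and directions are those between libraries as labelled. BLM3 correlated with the other libraries at 0.886 to 0.925 across genes, against up to 0.982 among the rest. All 16 alveolar macrophage markers were present, with a summed FPKM of 5774 to 8197 in the knockout and 4091 to 7303 in the wild-type libraries, most of it from Chil3. Of the 16, 13 had a positive log2 difference (median 0.72), as did 5663 of the 10696 genes tested (median 0.02). In all knockout libraries 7 were higher, among them Krt79 and Cidec, as were 15.9% of all genes tested. The scavenger receptor gene Marco fell and 0 rose, against 0.851% and 0.252% of all genes tested. Fabp4 and Lpl also had negative log2 differences, -0.60 and -0.80 (limma adjusted p = 0.213 and 0.240). Summed FPKM ran from 266094 to 294525 per library, and the read depth behind it is unknown.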

How the data were processed

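RNA of 6 mouse alveolar macrophage samples was sequenced from KAPA stranded libraries, per the labels' protocols. The authors deposited FPKM per gene and library, per the file headers, with GRCm38 as the build that the submitters' processing notes name. No source used here gives the aligner, the quantifier, the strand use or the annotation release. Columns were matched to groups by name, A20 for the knockout samples and the exposure alone for wild type, and not to single titled samples. All 6 value columns were used, and no pair of libraries was identical.

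The test took the 10696 genes whose mean reached 1 FPKM and left out 1093. It used limma 3.58.1 (lmFit, then eBayes with trend, R 4.3.3) on log2(FPKM + 1), so the pseudocount was 1. Two-sided p-values were adjusted by Benjamini-Hochberg across the 10696 genes, and those under 0.05 were called. Intervals of 95% come from the same fit and, since read depth is unknown, give the spread between libraries only. The fit was also run on simulated data with known differences. The simulated noise of a gene had the same spread in all 6 libraries, so that run does not cover a library apart from the rest, such as BLM3. Lists were described by counts and medians, with no set test. Coordinates of the 8 genes matched GENCODE M21. Alternatives were the pseudocount, the minimum, TPM, quantile normalization, array weights, eBayes without trend and leaving out each library. The members, lists and the rule for named genes were chosen with earlier results of these data known. That rule names the 8 genes, Tnfaip3, the genes of each pathway list past the threshold with the next smallest p up to 3 in all, and the 3 genes nearest to Nfe2l2. Cul3, Gss, Txnrd1, Ephx1, Slc48a1, Slc7a11, Hmox1 and Osgin1 were added after their values were seen.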

Additional observations from a re-analysis of the deposited data

How the results depend on the processing

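Differences of Srxn1, Nqo1, Gclc, Nfe2l2 and Txn1 stayed negative, and that of Gclm positive, under the pseudocounts, minimums, scalings, weights and left-out libraries tried. Gsr turned to 0.0634 under TPM, 0.0431 with quantile normalization and 0.0843 with array weights, and ran from -0.0829 to 0.0588 when a library was left out, positive without A20-1 (0.0576) and without BLM3. Keap1 was 0.00984 without A20-1. Tnfaip3 ran from -0.141 without BLM2 to 1.27 without BLM3. Array weights called 942 rises and 992 falls, or 18.1% of all genes tested. Among them were 3 of the 8 genes, which fell (Srxn1, Nqo1 and Gclc), and in the lists 3 rises and 1 fall of regulators, 8 falls of other targets, 4 of the glutathione list, 1 rise and 5 falls of the thioredoxin list and 3 falls of NADPH supply. TPM gave 41 rises. A minimum mean FPKM of 5 gave 17 rises and 58 falls, with 0 in the glutathione list, since Gstm2 was not tested there, nor was Nqo1. Leaving out a library gave 0 to 144 rises and 0 to 267 falls over all genes. It gave 0 to 1 falls among the 8 genes, 0 to 4 among other targets and 0 to 2 in the glutathione list, 0 to 1 rises in the thioredoxin list and 0 to 1 falls in NADPH supply. Without A20-3 limma called 0 genes, with 1694 at an unadjusted p under 0.05. The Nfe2l2 to Keap1 log2 ratio differed by -0.02, and by -0.21 to 0.13 when a library was left out, with 0.13 without A20-3, 0.02 without A20-4 and 0.01 without BLM3; the Gclc to Gclm ratio ran from -0.83 to -0.41. The cause of these shifts was not tested. No paired analysis was possible because the columns carry no replicate number of the sample titles. The read depth behind low levels such as those of Nqo1 and Gstm2 is unknown.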

Other observations

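Several genes of the same pathways lay below the minimum mean FPKM and were not tested. Ggt1, the surface enzyme that starts the breakdown of glutathione outside the cell, had 0.310, 0.211 and 0.261 FPKM in A20-1, A20-3 and A20-4, against 1.01, 0.554 and 3.35 FPKM in BLM1, BLM2 and BLM3. Its knockout values all lay below those of wild type. Aldh3a1, an aldehyde dehydrogenase, ran the other way, with 1.35, 0.934 and 0.715 FPKM in A20-1, A20-3 and A20-4, against 0.0452, 0.281 and 0 FPKM in BLM1, BLM2 and BLM3. Gsta3, an alpha class glutathione S-transferase, had 0.772, 0.520 and 0.490 FPKM in A20-1, A20-3 and A20-4, against 0.290, 0.254 and 0.370 FPKM in BLM1, BLM2 and BLM3. The club cell gene Scgb1a1, a marker of airway epithelium, stood at 291, 217 and 112 FPKM in A20-1, A20-3 and A20-4, against 66.6, 111 and 23.1 FPKM in BLM1, BLM2 and BLM3. Scgb1a1 in A20-4 was close to BLM2. Of the 12 lung epithelial markers, 4 were higher in all knockout libraries (Scgb1a1, Epcam, Cdh1 and Foxj1), 2 were lower in all of them (Krt8 and Krt18), and the groups overlapped for the other 6. Foxj1 was not tested, and of the 11 tested markers 27.3% were higher and 18.2% lower in this way. Over all genes tested these shares were 15.9% and 13.1%. Their part in the values of Aldh3a1 and Gsta3 was not tested. These genes were chosen after their values were seen.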
